A study of Mus musculus with 12 samples.

Results

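Transcripts of 10 genes used as markers of fat cells were measured in the left lungs of 12 mice. The genes are Adipoq, Lep, Retn, Plin1, Plin4, Cidec, Fabp4, Lpl, Car3 and Ucp1. They were chosen by name. Each was read from the transcript cluster (the probes that report 1 gene) whose only gene symbol in the array annotation is that gene, and each had exactly 1 such cluster. They are 10 of the 19938 genes that such clusters name. Mice of a mixed C57/129S background received 30 µL of PBS, or 0.075 U of bleomycin in the same volume, into the trachea, and the lungs were taken after 5 days. Bleomycin is a DNA-damaging drug that injures the alveoli and leads to lung fibrosis in mice. WTC denotes Fra-1+/+ mice given PBS and WTT those given bleomycin. KOC and KOT denote Fra-1-/- mice given PBS and bleomycin, in that order. Each of the 4 groups held 3 mice, which are named by group and animal number, such as KOC 55. Per the study's methods all mice carried the floxed Fra-1 allele, and the Fra-1-/- mice in addition a Meox2 (Sox2) Cre that acts in the embryo and not in extra-embryonic tissue. The Fra-1+/+ controls were thus floxed mice without Cre. The labels give females aged 2 months, and the study's methods an older range. Every value below is on the log2 scale of the deposited arrays, on which a difference of 1 is a doubling.

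White adipocytes store triglyceride in a single large lipid droplet, take up fatty acids released from circulating lipoproteins, and secrete hormones known as adipokines. Brown adipocytes hold many small droplets and burn fatty acids for heat. PPARG and the C/EBP proteins drive most of the genes of both. Lung parenchyma contains few adipocytes, while fat lies at the hilum and in the mediastinum beside the heart and the thymus. Several of the 10 genes are also known in other cells. FABP4 is abundant in capillary endothelium and in some macrophages, lipoprotein lipase in macrophages and heart muscle, and carbonic anhydrase 3 in skeletal muscle. In RNA from a whole lung, fewer cells of a type and less RNA per cell cannot be told apart.

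Promoter sequence was read for the members as a description, and its part in their levels was not tested. RefSeq tables on GRCm38.p6 held a start for 7 of the 10 genes, Adipoq, Lep, Retn, Plin1, Plin4, Cidec and Ucp1, with a pair of starts for Cidec, which gave 8 windows of 250 bases before a start. The windows were searched on both strands for the letters of the C/EBP element (TTGCNNAA), the direct repeat bound by PPARG with RXR (a pair of AGGNCA sites with a single base between them), a lone AGGTCA site, and the AP-1 element (TGANTCA), which Fra-1 binds as a partner of Jun proteins. The 4 windows below are the one of Adipoq, in which none of these motifs was found, and those of Lep, Plin1 and the second start of Cidec, which hold the C/EBP letters. Capitals mark the matches.
Adipoq, chr16:23146286-23146535, plus strand: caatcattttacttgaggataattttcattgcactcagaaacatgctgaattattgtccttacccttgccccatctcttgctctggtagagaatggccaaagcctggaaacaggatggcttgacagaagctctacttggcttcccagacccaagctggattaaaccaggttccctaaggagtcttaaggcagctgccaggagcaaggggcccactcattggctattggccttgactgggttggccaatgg
Lep, chr6:29059971-29060220, plus strand: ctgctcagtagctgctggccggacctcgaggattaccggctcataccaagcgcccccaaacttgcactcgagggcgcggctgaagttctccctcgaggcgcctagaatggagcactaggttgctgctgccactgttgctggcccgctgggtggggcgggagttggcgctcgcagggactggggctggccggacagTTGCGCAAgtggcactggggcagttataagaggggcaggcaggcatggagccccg
Plin1, chr7:79732777-79733026, minus strand: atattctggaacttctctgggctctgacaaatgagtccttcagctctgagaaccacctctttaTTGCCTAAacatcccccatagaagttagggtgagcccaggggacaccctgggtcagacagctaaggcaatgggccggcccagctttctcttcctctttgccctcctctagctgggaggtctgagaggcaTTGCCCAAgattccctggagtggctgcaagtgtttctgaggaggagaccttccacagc
Cidec, second start, chr6:113434765-113435014, minus strand: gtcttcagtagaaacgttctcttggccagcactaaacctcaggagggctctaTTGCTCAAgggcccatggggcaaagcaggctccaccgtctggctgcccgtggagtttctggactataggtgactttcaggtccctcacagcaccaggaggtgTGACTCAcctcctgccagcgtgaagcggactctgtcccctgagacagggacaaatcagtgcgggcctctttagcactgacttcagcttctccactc
The C/EBP letters lie at -55 to -48 from the start of Lep, at -187 to -180 and -58 to -51 in Plin1, and at -198 to -191 in Cidec, where TGACTCA, the AP-1 letters, lies at -96 to -90. The C/EBP letters were present in 3 of the 8 windows and in 9.56% of all 32851 promoter windows of the same length, and the AP-1 letters in 1 of 8 and in 6.75%. AGGTCA was in 1 of 8, that of Ucp1, and in 14% of all windows. The full repeat was in 0 of 8 and in 0.338% of all. A match describes the letters of these windows only.

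Fosl1, the gene of Fra-1, lay at 6.37, 6.76 and 6.86 in WTC, 6.68, 6.26 and 6.56 in KOC, 7.81, 8.19 and 8.32 in WTT and 7.33, 7.32 and 7.28 in KOT. The PBS-treated genotypes overlapped, and the KOT mice all lay below the WTT mice. Whether this cluster's probes lie within the deleted exons was not established here, so it does not check the genotype. The 12 arrays had medians between 7.14 and 7.22, and the mean correlation of an array with the others of its group lay between 0.987 and 0.991 over all clusters. In 12 of 12 arrays the sex read from the data did not match the label. The number of arrays limits the precision of every value below. The p-values of limma, a linear model, draw on the spread between the mice of a group. Those of LPE, the local-pooled-error test, draw on clusters of like intensity. Those of correlations come from permuting the 12 arrays without regard to group.

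Of the secreted proteins, Adipoq encodes adiponectin, the most abundant adipokine. Its levels were 6.46, 6.93 and 5.96 in the WTC mice 76, 157 and 158, 5.91, 6.50 and 5.64 in the WTT mice 160, 161 and 164, 6.44, 7.89 and 6.51 in the KOC mice 53, 55 and 67, and 6.78, 6.98 and 6.68 in the KOT mice 72, 80 and 81. All further values are listed in this order of mice. KOC 55 stood 0.92 above the next highest mouse, and the KOT mice all lay above the WTT mice, whereas all other pairs of groups overlapped. Retn encodes resistin, an adipokine of mouse white fat. It lay at 7.63, 8.03 and 7.29 in WTC, 6.72, 7.45 and 7.19 in WTT, 7.66, 8.68 and 7.58 in KOC and 7.97, 8.17 and 7.44 in KOT. The same mouse was again highest, by 0.50, and WTT 160 was lowest. Lep encodes leptin, the hormone that reports fat stores to the brain. Leptin transcript lay at 5.03, 5.36 and 4.99 in WTC, 5.22, 5.27 and 4.88 in WTT, 4.86, 5.79 and 5.03 in KOC and 4.85, 5.11 and 4.97 in KOT. Without KOC 55, at 5.79, the other 11 arrays spanned 0.51.

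Of the lipid droplet proteins, Plin1 encodes perilipin 1, which coats the droplet of adipocytes and gates access of lipases to it. It lay at 6.87, 7.45 and 7.04 in WTC, 6.76, 7.23 and 7.07 in WTT, 7.20, 8.25 and 7.08 in KOC and 7.08, 7.21 and 6.85 in KOT, so that KOC 55 was highest by 0.80 and all 4 groups overlapped. Plin4 encodes perilipin 4, which coats nascent droplets. Its levels, 7.77, 7.89 and 7.53 in WTC, 7.59, 7.70 and 7.55 in WTT, 7.54, 8.03 and 7.64 in KOC and 7.68, 7.74 and 7.42 in KOT, spanned 0.61, the narrowest range of the 10 genes. Cidec encodes the protein that fuses small droplets into large ones, and its levels separated the treatments. They lay at 8.64, 9.04 and 8.83 in WTC and at 7.45, 8.09 and 7.31 in WTT, with no overlap, and at 9.01, 9.51 and 9.0 in KOC and 8.27, 8.70 and 7.92 in KOT, again with no overlap. Both bleomycin groups were the lower ones.

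Of the proteins that handle fatty acids, Fabp4 encodes the fatty acid-binding protein of adipocytes. It lay at 7.67, 7.84 and 7.41 in WTC, 7.30, 8.58 and 7.68 in WTT, 7.67, 9.03 and 7.81 in KOC and 8.04, 8.14 and 8.32 in KOT. KOC 55 and WTT 161 were the highest mice, and the 4 groups overlapped apart from WTC and KOT, where every KOT mouse was higher. Lpl encodes lipoprotein lipase, which frees fatty acids from circulating triglyceride. It was the only member in which KOC 55 was not the highest mouse. Its levels were 10.08, 10.26 and 9.87 in WTC, 10.44, 11.04 and 11.10 in WTT, 9.86, 10.28 and 10.003 in KOC and 10.41, 10.35 and 10.57 in KOT. In both genotypes every bleomycin-treated mouse lay above every PBS-treated mouse.

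Car3 encodes carbonic anhydrase 3, a cytosolic enzyme of adipocytes and slow muscle. It varied most, over 5.15 in all. It lay at 8.87, 9.81 and 8.75 in WTC, 6.80, 8.84 and 6.13 in WTT, 10.18, 11.28 and 9.80 in KOC and 9.74, 9.90 and 9.38 in KOT. WTT 160 and WTT 164 were far below all other mice, while WTT 161 lay within the WTC range, and the KOT mice all lay above the WTT mice. Ucp1 encodes the uncoupling protein that lets brown fat mitochondria release heat. It lay at 5.23, 5.40 and 5.34 in WTC, 5.47, 5.51 and 5.22 in WTT, 5.20, 6.16 and 5.11 in KOC and 5.38, 5.33 and 5.24 in KOT. KOC 55 was 0.65 above the next mouse, and the other 11 arrays lay within 0.40 of each other.

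**Figure D1:**
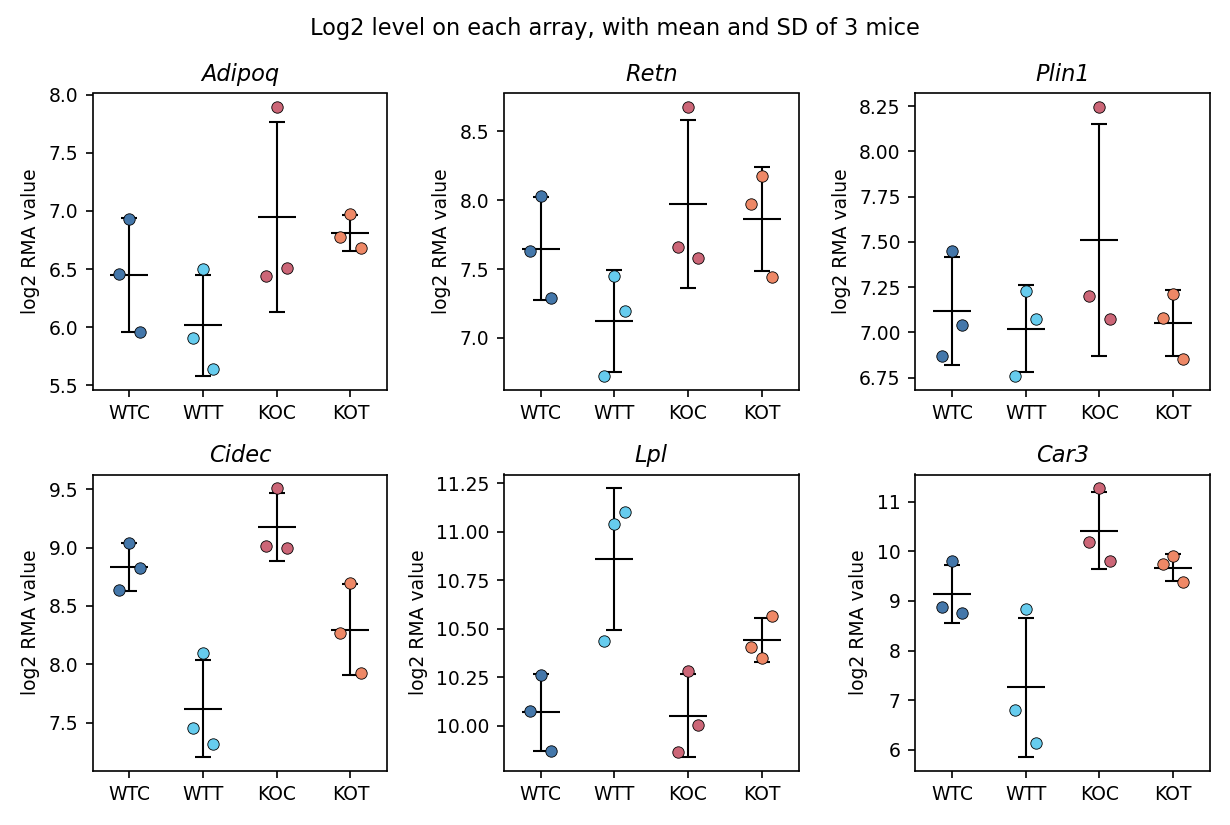
Log2 RMA value (y axis) of 6 of the 10 genes in each mouse of WTC, WTT, KOC and KOT (x axis). Each point is 1 mouse, the horizontal line is the mean and the bars are the SD of 3 mice, and each panel has its own y range. Cidec was lower and Lpl higher in both bleomycin groups, and 1 KOC mouse stood above the rest for Adipoq, Retn and Plin1.

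KOC 55 was the highest of the 12 arrays in 9 of the 10 genes, and lay on average 0.94 above each gene's mean over the arrays. The next array, WTC 157, lay 0.26 above and was among the 3 highest in 6 genes. WTT 160 and WTT 164 lay 0.58 and 0.57 below, and each was the lowest array in 3 genes. Car3 had the largest deviations in these mice, -2.33 and -2.99, and weighs most in both means. In WTT 164, Lpl lay 0.75 above its mean and was the highest of the 12 arrays. Over all clusters the mean correlation of KOC 55 with its group was 0.990, which does not show whether a set of genes is shifted. Of the lists described below, KOC 55 was also highest in 8 of 12 lipogenesis, 6 of 11 thermogenic and 5 of 8 alveolar type 2 genes. It was highest in 1 of 10 skeletal muscle, 1 of 10 alveolar macrophage and 0 of 8 neutrophil genes. The share of all genes that were highest in KOC 55 was not measured. For the 10 genes, of which 9 were highest in KOC 55, the comparisons that use it are given with and without it.

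**Figure D2:**
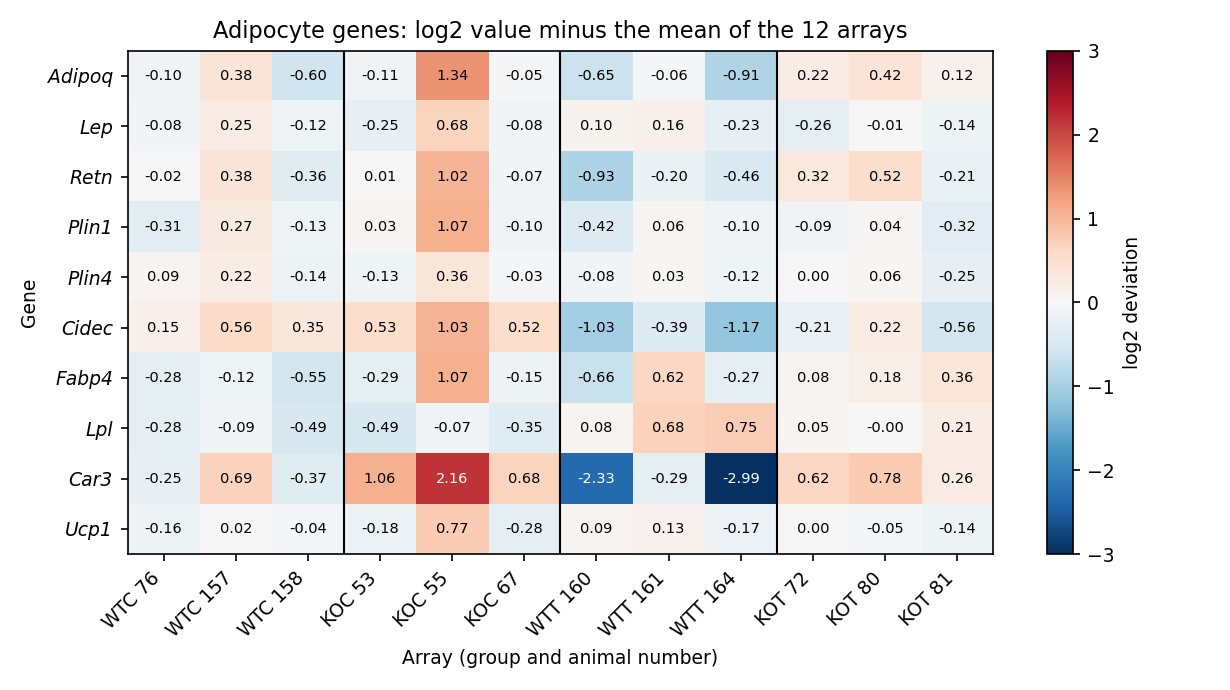
Deviation of each of the 10 genes (rows) from its own mean over the 12 arrays, on the log2 scale, in each array (columns, grouped as WTC, KOC, WTT and KOT and separated by lines). Red is higher and blue lower, and the colour scale ends at 3 in either direction. The column of KOC 55 is red in 9 rows, and the largest negative values are those of Car3 in WTT 160 and WTT 164.

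The first comparison asks which of these genes changed with bleomycin in Fra-1+/+ mice. Cidec fell and Lpl rose, each without overlap of the groups, and Car3 fell with overlap. Cidec went from 8.83 ± 0.20 (SD, n = 3) to 7.62 ± 0.42, a log2 difference of -1.21 (SE 0.23, adjusted p = 0.00414 from limma) and a change of 2.32-fold. Lpl went from 10.07 ± 0.20 to 10.86 ± 0.37, a difference of 0.79 (SE 0.17, adjusted p = 0.00766 from limma) or 1.73-fold. Car3 went from 9.14 ± 0.58 to 7.26 ± 1.41, a difference of -1.89 (SE 0.59, adjusted p = 0.0401 from limma). That call was lost in 8 of the 12 fits that left out 1 mouse, where the difference lay between -2.68 without WTT 161 and -1.33 without WTT 164 (adjusted p = 0.151 from limma). Thus 1 of 10 genes passed the test higher and 2 lower, where 21.5% of all 23410 clusters with a symbol passed, 10.2% higher and 11.3% lower. The other 7 genes differed by -0.53 (Retn) to 0.21 (Fabp4), with Adipoq at -0.43 (SE 0.36, adjusted p = 0.453 from limma). Adipoq lay between -0.68 without WTC 158 and -0.19 without WTC 157, and Retn between -0.71 without WTC 158 and -0.33 without WTT 160. The median difference of the 10 was -0.11, and that of all clusters 0.02. Groups did not overlap for 2 of the 10 genes, 1 in each direction, and for 35.7% of all clusters (18.3% higher and 17.4% lower). LPE, the local-pooled-error test of the study's methods, which compares medians, called the same 3 genes and 7.92% of all clusters, and 3 genes had an unadjusted p under 0.05, beside 33.6%.

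In Fra-1-/- mice, Cidec alone passed the test after bleomycin. It went from 9.17 ± 0.29 in KOC to 8.30 ± 0.39 in KOT, a log2 difference of -0.88 (SE 0.23, adjusted p = 0.0264 from limma). The adjusted p was above the threshold without KOC 53 (0.0516), KOC 55 (0.107), KOT 72 (0.0839) or KOT 81 (0.114), and the difference lay between -1.08 and -0.69 over all fits without 1 mouse. Lpl, at 10.05 ± 0.21 and 10.44 ± 0.11, differed by 0.39 (SE 0.17, adjusted p = 0.159 from limma). The groups of Lpl did not overlap although the test was not passed. The count of 1 lower and 0 higher among 10 stands beside 15.4% of all clusters called, 7.42% higher and 7.98% lower, and the 2 genes without overlap beside 35.4% (18.8% higher and 16.6% lower). LPE called Cidec alone, and 8.08% of all clusters, and 2 genes had an unadjusted p under 0.05, beside 28.8%. The median difference of the 10 genes was -0.15, with 9 below 0, against 0.02 over all clusters. Without KOC 55 the median became 0.10, with 3 below 0. Adipoq, for instance, differed by -0.14 with that mouse and by 0.33 without it.

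The next comparison is of the genotypes given PBS, which differ in the loss of Fra-1 together with carriage of Cre, so that these cannot be told apart. Between KOC and WTC 0 of the 10 genes passed, beside 0.0128% of all clusters, and at an unadjusted p under 0.05 the count was also 0, beside 9.82%. Differences ran from -0.02 (Lpl) to 1.28 (Car3, SE 0.59, adjusted p = 0.513 from limma), and 9 of 10 were above 0, with a median of 0.33 against -0.01 for all clusters. Fabp4 differed by 0.53 (SE 0.35), Adipoq by 0.50 (SE 0.36), Plin1 by 0.39 (SE 0.27), Cidec by 0.34 (SE 0.23) and Retn by 0.32 (SE 0.31). Without KOC 55 the median was -0.0049, with 5 above and 5 below 0. Without it Fabp4 differed by 0.10, Adipoq by 0.03, Plin1 by 0.02 and Retn by -0.03. Car3 still differed by 0.85 and Cidec by 0.17. No gene of the 10 separated the groups, where 16.3% of all clusters did, 6.88% higher and 9.37% lower. LPE called 1 gene, Car3 (1.31, adjusted p = 5.23e-11), and 1.79% of all clusters.

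With bleomycin in both genotypes, KOT was compared with WTT, and 0 of 10 genes passed, beside 0.0427% of all clusters. Car3 differed most, from 7.26 ± 1.41 in WTT to 9.68 ± 0.27 in KOT. The difference was 2.42 (SE 0.59, 95% interval 1.13 to 3.71, adjusted p = 0.242 from limma), which is 5.35-fold, and it lay between 1.86 without WTT 164 and 3.21 without WTT 161. Cidec differed by 0.68 (SE 0.23, adjusted p = 0.359 from limma), Retn by 0.74 (SE 0.31, adjusted p = 0.433 from limma), Adipoq by 0.79 (SE 0.36, adjusted p = 0.472 from limma) and Lpl by -0.42 (SE 0.17, adjusted p = 0.431 from limma). These 4 genes with Car3 had the smallest p of the 10. At an unadjusted p under 0.05 there were 4 genes, Car3, Cidec, Lpl and Retn, where 10.6% of all clusters lay below it. Groups did not overlap for Car3 and Adipoq, both higher in KOT, and for 15.7% of all clusters, 6.92% in that direction and 8.80% in the other. LPE called 3 genes, Car3 (2.95, adjusted p = 2.12e-50), Adipoq (0.87, adjusted p = 0.0038) and Cidec (0.82, adjusted p = 0.0058), beside 0.705% of all clusters. LPE takes its error from clusters of like intensity and not from the spread of the gene itself, which for Car3 reached an SD of 1.41 in WTT. The median of the 10 genes was 0.17, with 6 above 0, against -0.01 over all clusters. This comparison shares the WTT mice with that of WTT with WTC, so that the low Car3 of WTT 160 and WTT 164 enters both.

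The difference between the responses of the genotypes to bleomycin was tested directly, as KOT minus KOC less WTT minus WTC. It passed for 0 of 10 genes and for 0 of all 23410 clusters, and at an unadjusted p under 0.05 for 0 of 10 and for 5.10% of all clusters. Car3 had the largest value, 1.14 (SE 0.83, 95% interval -0.68 to 2.97, adjusted p = 0.98 from limma), and Lpl the lowest, -0.40 (SE 0.24, adjusted p = 0.963 from limma). The value of Car3 was 0.58 without WTT 164 and 1.93 without WTT 161. The fall of Cidec, called in both genotypes, differed between them by 0.34 (SE 0.33, 95% interval -0.39 to 1.06), and by 0.13 without KOT 80 and 0.57 without WTT 161. The median of the 10 was -0.11, with 4 above 0. It was 0.14, with 4 above 0, over the 8 genes other than Lep and Ucp1, which had no group mean of at least 6. Without KOC 55 the median of the 10 was 0.17, with 9 above 0. Without that mouse Adipoq went from 0.30 to 0.77 and Retn from 0.42 to 0.77. Lep, Plin1, Plin4, Fabp4 and Ucp1, all below 0 with it, were then between 0.0083 (Plin1) and 0.21 (Fabp4).

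**Figure D3:**
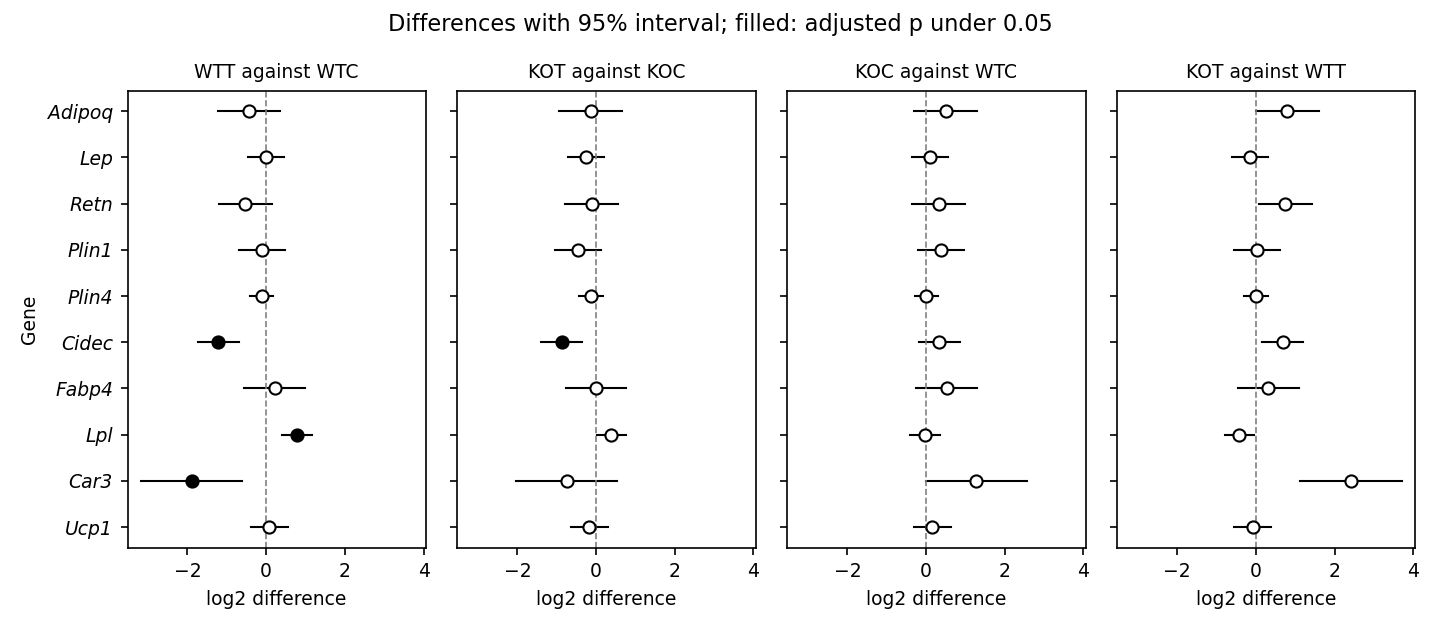
Log2 difference (x axis) of the 10 genes (y axis) in the 4 comparisons of groups, 1 panel each. Circles are differences between the means of 3 mice, lines are 95% intervals, and filled circles have an adjusted p under 0.05. Filled circles are Cidec, Lpl and Car3 for WTT against WTC and Cidec for KOT against KOC, with none in the panels that compare genotypes.

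Most of the 10 genes were high and low in the same mice. Over the 12 arrays Adipoq was most closely followed by Retn, with r = 0.92 (permutation, adjusted p = 0.00072 over 9 relations) and Spearman's rho = 0.86 (permutation, adjusted p = 0.00549). For Car3, r was 0.87 (permutation, adjusted p = 0.000855) and rho 0.78 (permutation, adjusted p = 0.0139). For Fabp4, r was 0.80 (permutation, adjusted p = 0.0063) and rho 0.78 (permutation, adjusted p = 0.0139). Within the 6 PBS-treated mice, which include KOC 55, r was 0.99, 0.87 and 0.97. Within the 6 bleomycin-treated mice, which include WTT 164, it was 0.84, 0.99 and 0.69. Neither set of 6 is thus free of the mice left out next. Without KOC 55 and WTT 164, the mice farthest from the median of Adipoq, r was 0.90, 0.76 and 0.66. With the group means taken off and all mice kept, r was 0.87, 0.83 and 0.87.

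The other relations leaned more on those mice. For Plin1, r was 0.78 (permutation, adjusted p = 0.0108) and rho 0.65 (permutation, adjusted p = 0.0605), with r = 0.58 without them. For Plin4, r was 0.75 (permutation, adjusted p = 0.0108) and rho 0.62 (permutation, adjusted p = 0.0617), with r = 0.49 without them. For the perilipins r was 0.93 and 0.90 within the PBS-treated and 0.39 and 0.36 within the bleomycin-treated mice. For Cidec, r was 0.69 (permutation, adjusted p = 0.0187) and rho 0.55 (permutation, adjusted p = 0.102), with r = 0.33 without both mice. Within the treatments Cidec gave r = 0.86 with PBS and 0.95 with bleomycin. For Lep, r was 0.67 (permutation, adjusted p = 0.0289) and rho 0.41 (permutation, adjusted p = 0.238), and for Ucp1, r was 0.66 (permutation, adjusted p = 0.0423) and rho 0.35 (permutation, adjusted p = 0.302). Without both mice r was 0.06 for Lep and -0.12 for Ucp1, so these 2 relations rest on them. Within the PBS-treated mice, KOC 55 among them, r was 0.93 for Lep and 0.87 for Ucp1. Within the bleomycin-treated mice it was 0.0082 and 0.083. For Lpl, r was -0.18 (permutation, adjusted p = 0.562) and rho -0.06 (permutation, adjusted p = 0.853). Its r was 0.23 without both mice, 0.53 with the group means taken off, 0.84 within PBS-treated and -0.56 within bleomycin-treated mice. With the group means taken off and both mice kept, r was 0.86 for Plin1, 0.91 for Plin4, 0.74 for Cidec, 0.93 for Lep and 0.84 for Ucp1.

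Among all 19937 other genes the most like Adipoq over the 12 arrays, members aside, were Asb2 (r = 0.88), Cdh19 (r = 0.87), Lgr6 (r = 0.86), Eif4a3l1, Kcna1, Ldb3, Pgam2, Cnpy2, Tlcd2 and Lama2 (r = 0.82). Ldb3 and Pgam2 encode proteins of striated muscle. With the group means taken off they were Fabp3 (r = 0.95), Opn4, Olfr1257, Klhl31, Olfr374, Zglp1, Slc2a4, Csrp3, Pck1 and Ldb3. Fabp3 is the fatty acid-binding protein of heart and muscle, Slc2a4 the insulin-regulated glucose transporter of fat and muscle, and Pck1 makes glycerol for triglyceride in fat. The 100 genes most like Adipoq on the log2 values held 5 of the other 9 members, 5 of the 78 measured genes of the wider adipocyte lists described next (Pck1, Slc2a4, Acacb, Aqp7 and Aoc3) and 5 of 10 cardiac muscle genes (Nppa, Sln, Tnnt2, Myh6 and Ryr2). With the group means taken off, they held 7 members, 8 of the 78 (Fabp3, Slc2a4, Pck1, Aqp7, Cox7a1, Cox8b, Ebf2 and Thrsp) and 2 of the 10 cardiac genes (Tnnt2 and Sln). All these values come from the same 12 arrays and describe them only. KOC 55, the highest mouse for Adipoq, was kept in both rankings, and no ranking was made without it. The rankings therefore cannot separate genes that follow Adipoq over the mice from genes that were high in KOC 55. The 7 members include Lep and Ucp1, whose r was 0.06 and -0.12 without KOC 55 and WTT 164.

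The wider adipocyte program was read from 85 genes in 7 lists, of which 78 had a cluster of their own. Adipsin (Cfd), the beta-3 adrenergic receptor (Adrb3), Acsl1, Cpt1b, Gyk, Adrb1 and Adora1 were not measured by a cluster with a single symbol. The study reports Cfd as higher in bleomycin-treated Fra-1-/- than Fra-1+/+ mice, and the counts that follow leave this gene out. After bleomycin, 36 of 78 passed in Fra-1+/+ mice, 6 higher and 30 lower, beside 21.5% of all clusters, 10.2% higher and 11.3% lower. In Fra-1-/- mice 28 passed, 6 higher and 22 lower, beside 15.4% of all clusters, 7.42% higher and 7.98% lower. Median differences were -0.20 and -0.21, against 0.02 in both for all clusters. Between genotypes 0 of 78 passed limma with PBS and 0 with bleomycin, LPE called 0 in both, and 8 and 9 had an unadjusted p under 0.05, beside 9.82% and 10.6% of all clusters. The count in Fra-1-/- mice was 17 without KOC 55, and 15 without KOT 72 or without KOT 81. The difference between responses passed for 0 of the 78, and 4 had an unadjusted p under 0.05, beside 5.10% of all clusters. Counts that differ between the genotypes, here and list by list below, therefore do not show that the response depended on genotype.

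Of the 8 measured adipokines and secreted proteins, 1 passed higher and 2 lower in Fra-1+/+, and 2 higher and 2 lower in Fra-1-/- lungs. Beside these counts, and those of each list down to the membrane and structural genes, stand the shares of all clusters. In Fra-1+/+ mice 11.3% passed lower and 10.2% higher, and in Fra-1-/- mice 7.98% and 7.42%. In the pairs of values that follow, Fra-1+/+ mice come first. Angptl4, an inhibitor of lipoprotein lipase, rose by 1.23 (SE 0.28) and 0.98 (SE 0.28). C1qtnf2, a relative of adiponectin, fell by 0.58 (SE 0.13) and 1.10 (SE 0.13). Rbp4, the carrier of retinol, differed by -0.64 (adjusted p = 0.0138 from limma) and -0.34 (adjusted p = 0.179 from limma). Apln, the peptide apelin, differed by -0.74 (adjusted p = 0.0617 from limma) and -0.96 (adjusted p = 0.0266 from limma). The difference between responses did not pass for either gene (adjusted p = 0.983 and 0.997 from limma). Of 12 lipid droplet and lipolysis genes, Plin2 was higher and G0s2 lower in Fra-1+/+ lungs, and 2 were lower in Fra-1-/- lungs. Plin2, the perilipin of most cells other than adipocytes, rose by 1.02 (SE 0.23, adjusted p = 0.0085 from limma) in Fra-1+/+ mice, and differed by 0.49 (adjusted p = 0.176 from limma) in Fra-1-/- mice. Its difference between responses was -0.53 (adjusted p = 0.963 from limma). G0s2, an inhibitor of adipose triglyceride lipase, fell by 0.39 and 0.36. Hilpda, another inhibitor of that lipase, differed by -0.55 (adjusted p = 0.0588 from limma) and -0.93 (adjusted p = 0.00741 from limma).

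Of 13 genes of fatty acid uptake and triglyceride synthesis, 5 fell in Fra-1+/+ and 3 in Fra-1-/- mice, and 0 rose. Gpam, which starts glycerolipid synthesis, fell by 0.69 (SE 0.10) and 0.65 (SE 0.10). Cd36, a fatty acid transporter that is abundant in capillary endothelium, fell by 0.34 and 0.39, and Gpihbp1, which anchors lipoprotein lipase on capillaries, by 0.36 and 0.37. Of 12 genes of lipogenesis and glucose uptake, 8 were lower and 1 higher in Fra-1+/+ lungs, against 4 and 1 without Fra-1. Irs1, the insulin receptor substrate, fell by 0.98 (SE 0.15) and 1.06 (SE 0.15), and Scd2, a fatty acid desaturase, by 0.73 and 0.44. Elovl6, which lengthens fatty acids, rose by 0.50 and 0.63.

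Of 12 adipogenic transcription factors, 5 were lower and 1 higher in Fra-1+/+ lungs, while 3 were lower without Fra-1. Klf15, a glucocorticoid-induced factor, fell by 1.06 (SE 0.20) and 0.94 (SE 0.20), and Ebf1 by 0.78 and 0.58. Pparg, the principal factor of adipocytes, which alveolar macrophages also need, differed by -0.38 (SE 0.09, adjusted p = 0.0145 from limma) and -0.20 (adjusted p = 0.174 from limma). Of 11 thermogenic genes, 5 were lower in Fra-1+/+ lungs, while 3 were lower and 1 higher without Fra-1. Cox8b and Cox7a1, subunits of cytochrome oxidase in heart, muscle and brown fat, fell by 1.83 (SE 0.29) and 1.59 (SE 0.27) in the first genotype, and by 1.02 and 0.92 in the second. Prdm16, a factor of brown fat, fell by 0.66 and 0.65.

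Of 10 other membrane and structural genes, 4 were lower and 2 higher in Fra-1+/+ lungs, against 5 and 2 without Fra-1. Mest, an imprinted gene that rises in growing fat, rose by 1.62 (SE 0.19) and 0.71 (SE 0.19). Caveolar genes fell, Cavin2 by 1.05 and 1.12 and Cav1 by 0.47 and 0.57, and these are also abundant in lung endothelium. Npr3, a receptor that clears natriuretic peptides, fell by 1.34 (SE 0.28) and 1.64 (SE 0.28).

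Markers of other cells that a lung sample can hold were read beside these genes. Of 10 cardiac muscle genes, which the sleeves of the pulmonary veins express, 9 were highest in KOC 55, like 9 of the 10 adipocyte genes. The mean log2 level of the list was 10.23 in KOC 55 and 8.13 in WTT 164, the lowest array, and lay between 9.44 and 9.91 in WTC, 8.13 and 8.73 in WTT, 8.75 and 10.23 in KOC and 9.06 and 9.39 in KOT. Of the 10, 8 fell after bleomycin in Fra-1+/+ mice by limma (median -1.08), beside 11.3% of all clusters that passed lower. In Fra-1-/- mice 1 did, Myh7, beside 7.98%. The difference between responses passed for 0 of the 10, and 4 had an unadjusted p under 0.05, beside 5.10% of all clusters. Values without KOC 55 are not given for this list. Between KOT and WTT 0 passed limma, beside 0.0427% of all clusters, and LPE called 4 (Nppa, Myl7, Myl4 and Myh6), beside 0.705%. The unadjusted p was under 0.05 for 5, beside 10.6%. There 8 of the 10 had groups that did not overlap, all higher in KOT (median 0.65), beside 6.92% of all clusters. LPE called 5 between KOT and KOC, beside 8.08% of all clusters. The r of the 10 cardiac genes with Adipoq lay between 0.51 (Myh7) and 0.80 (Nppa, the atrial natriuretic peptide), with a median of 0.69. The part of cardiac muscle in the adipocyte values was not tested.

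**Figure D4:**
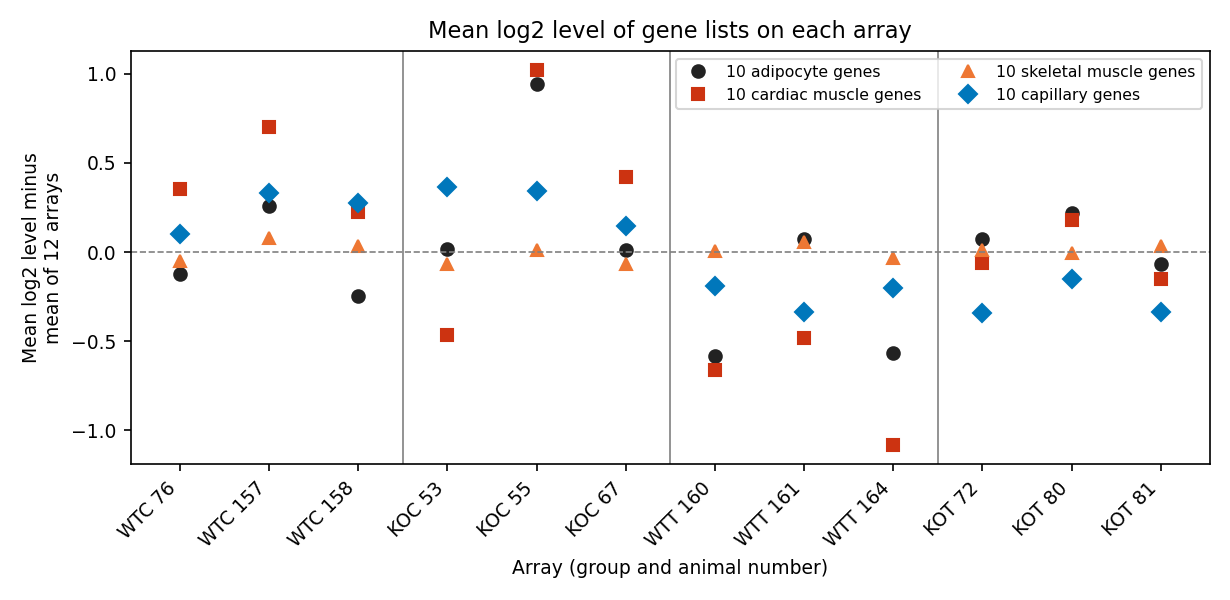
Mean log2 level of 4 gene lists of 10 genes each, as the deviation from the mean of the 12 arrays (y axis), in each array (x axis, groups separated by lines). Circles are the adipocyte genes, squares cardiac muscle, triangles skeletal muscle and diamonds capillary endothelium. In KOC 55 adipocyte and cardiac genes lie at 0.94 and 1.02, while skeletal muscle genes stay near 0, and capillary genes are below 0 in the bleomycin groups.

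Skeletal muscle, which also expresses Car3, gave r with Adipoq between -0.62 (Atp2a1) and 0.65 (Ckm), and the mean level of its 10 genes lay between 6.62 and 6.77 in all 12 arrays. The limma counts after bleomycin in this paragraph and the next stand beside these shares of all clusters. In Fra-1+/+ mice 11.3% passed lower and 10.2% higher, and in Fra-1-/- mice 7.98% and 7.42%. Capillary markers, which share Cd36 and Gpihbp1 with the lists above, fell after bleomycin for 8 of 10 genes in Fra-1+/+ and 9 of 10 in Fra-1-/- mice, with medians of -0.41 and -0.52. Their r with Adipoq lay between 0.11 (Gpihbp1) and 0.37 (Emcn). Lipofibroblast markers, of lipid-laden fibroblasts beside the alveoli, fell for 4 of 8 genes in Fra-1+/+ and 5 of 8 in Fra-1-/- mice, while Plin2, also in this list, rose in the former. Their r with Adipoq lay between -0.23 (Plin2) and 0.50 (Fgf10). Alveolar type 2 markers fell for 6 and 5 of 8 genes, with r between 0.25 (Sftpd) and 0.35 (Abca3).

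Of 10 measured alveolar macrophage genes, 2 were higher and 3 lower after bleomycin in Fra-1+/+ lungs, against 3 and 1 without Fra-1, with r from -0.37 (Marco) to 0.38 (Car4). Red blood cell genes were measured by 2 clusters, which both fell after bleomycin in both genotypes, with r of 0.30 (Slc4a1) and 0.43 (Alas2). Of 8 neutrophil genes 0 passed limma in any comparison. For WTT against WTC 4 had an unadjusted p under 0.05, beside 33.6% of all clusters, and LPE called 7, beside 7.92%. For KOT against WTT 2 had an unadjusted p under 0.05, beside 10.6%, and LPE called 2, beside 0.705%. Neutrophil genes gave r from -0.48 (Ly6g) to -0.07 (Camp). Thymocyte genes, whose organ lies beside mediastinal fat, gave r from -0.58 (Ptcra) to 0.37 (Cd1d1), with 1 of 8 lower after bleomycin in Fra-1+/+ mice. Mesothelial genes gave r from -0.43 (Wt1) to 0.38 (Upk3b), and nerve sheath genes from -0.67 (Gfap) to 0.70 (Mbp). Their part in the adipocyte values was not tested.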

How the data were processed

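Left lung RNA of 12 mice was hybridized to Affymetrix MoGene 1.0ST v1 arrays, 1 per mouse. The authors quantile normalized the probe signals of all arrays together and deposited log2 values per transcript cluster, obtained by RMA (median polish) with Affymetrix Power Tools (version not given in the sources used here). Their filter on detection above background was not used here, so members may be near background on some arrays. Of 35556 clusters, 21789 carry exactly 1 symbol, 1621 several and 12146 none in the array annotation.

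The 23410 clusters with a symbol were fitted in 1 linear model with a mean for each of the 4 groups, leaving 8 residual degrees of freedom (limma 3.58.1, statmod 1.5.0, R 4.3.3). Each SE thus draws on the spread within all 4 groups. Two-sided p-values were adjusted over the 23410 clusters by the Benjamini-Hochberg method, and a cluster passed under 0.05. LPE was rewritten in R, with 100 bins of intensity, a spline with 10 degrees of freedom, and a threshold of 0.01 on the adjusted p. The code was tested on simulated data. An exact two-sided permutation test of 1 gene cannot go below 0.1 with 3 mice a group, so the tests rest on variances pooled over clusters. Correlations used 100000 permutations, adjusted over 9 relations.

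All 10 members are named, with up to 4 genes of the smallest p in each wider list, the 10 genes most like Adipoq by each measure, and the marker genes with the highest and lowest r. Cfd, Adrb3 and the other unmeasured genes were named as such. The members, lists and tests were chosen with earlier results of these data known. The alternatives were leaving out each mouse, LPE, cyclic loess, array weights, fitting only the 6 arrays compared, centring arrays on equal medians, moderation with a trend and robust, testing all clusters, and testing those with a mean of at least 6 in some group. Promoters were taken from RefSeq.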

Additional observations from a re-analysis of the deposited data

How the results depend on the processing

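With the alternatives, the count of the 10 genes that passed was 0 for both comparisons of genotypes except by LPE (1 with PBS and 3 with bleomycin), 0 for the difference between responses throughout, and 2 or 3 for WTT against WTC, where Car3 was lost with only the 6 arrays of the comparison (adjusted p = 0.0874 from limma), array weights (0.0652), trended and robust moderation (0.0746) and all clusters (0.0689). For KOT against KOC it was 1 in every setting that used all mice, and between 0 and 1 without 1 mouse. The wider list gave 20 (LPE) and 24 to 39 (without 1 mouse) against 36 for WTT against WTC, and 16 (LPE), 44 (array weights) and 15 to 29 (without 1 mouse) against 28 for KOT against KOC. LPE and the fit to only 6 arrays were not run for the difference between responses, which has 4 groups. Some differences that were not called changed sign. By LPE these were Plin4 (-0.12) and Ucp1 (-0.14) between KOC and WTC, Plin4 (0.088) between KOT and WTT, Lep (0.18) and Plin1 (0.032) for WTT against WTC, and Adipoq (0.27), Retn (0.32), Plin4 (0.035), Fabp4 (0.33) and Ucp1 (0.13) for KOT against KOC. With equal array medians Lpl gave 0.028 between KOC and WTC. Between KOT and WTT, array weights gave -0.030 for Plin1 and 0.0023 for Plin4, and cyclic loess 0.0033 for Plin4. None of these passed the test. Leaving out 1 mouse turned the sign of 21 differences, none called, whose ranges follow. For KOC against WTC these were Lep (-0.18 to 0.28), Retn (-0.03 to 0.52), Plin4 (-0.14 to 0.11), Lpl (-0.13 to 0.078), Ucp1 (-0.17 to 0.36). For KOT against KOC these were Adipoq (-0.39 to 0.33), Lep (-0.44 to 0.029), Retn (-0.30 to 0.24), Plin4 (-0.22 to 0.021), Fabp4 (-0.25 to 0.43), Ucp1 (-0.36 to 0.16). For KOT against WTT these were Plin1 (-0.10 to 0.13), Plin4 (-0.063 to 0.092). For WTT against WTC these were Lep (-0.081 to 0.11), Plin1 (-0.22 to 0.066), Fabp4 (-0.15 to 0.49). For the difference between responses these were Lep (-0.43 to 0.036), Plin1 (-0.58 to 0.0083), Plin4 (-0.11 to 0.14), Fabp4 (-0.49 to 0.21), Ucp1 (-0.44 to 0.087). The cause was not tested. Over all alternatives the differences of the 10 genes kept sign and side of the threshold in 901 values and did not in 69. No paired analysis was possible because the animal numbers differ between the groups. What share of the members' signal is background was not measured here.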
